A study of Mus musculus with 12 samples.

Results

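Myc and 41 genes of ribosome biogenesis were followed in RNA-seq of bone marrow-derived monocytes (BMDMs), the precursors of osteoclasts. The 42 genes were taken as a fixed list by their known roles, at a time when earlier results of these data were known, and all 42 were found among the 21899 genes of the count table. BMDMs from tibias and femurs of C57BL/6 mice were grown with the macrophage growth factor M-CSF (50 ng/ml) and the osteoclast-inducing cytokine RANKL (100 ng/ml), a culture named MR. There were 4 groups of 3 libraries. MR alone served as the control, and the other groups received dBRD9, JQ1, or DEX together with iBRD9, so that every group carried M-CSF and RANKL. dBRD9 is a degrader of BRD9, a bromodomain protein of a chromatin remodeling complex called non-canonical BAF, and iBRD9 is an inhibitor of the same protein. JQ1 blocks the bromodomains of the BET proteins, and DEX is the glucocorticoid dexamethasone. No library with DEX alone or with iBRD9 alone was analysed here, so the parts of these agents cannot be told apart. The labels do not say whether the 3 libraries of a group came from separate mice or cultures, and the p-values below then measure only the spread between these libraries, which may be technical.

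Ribosomes are assembled in the nucleolus. RNA polymerase I transcribes the ribosomal RNA precursor, small nucleolar ribonucleoproteins (snoRNPs) guide the chemical modification of its bases and sugars, and a large set of assembly factors folds, cuts and exports the precursors of the 40S and 60S subunits. Myc is a transcription factor that binds the E-box CACGTG together with its partner Max, and many genes of this pathway are known Myc targets. Expression of Myc is sensitive to BET inhibitors in many blood cell types.

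Total counts were 14875951 to 18067758 per library, and the lowest count of any of the 42 genes in any library was 81. The markers of the lineage were present, with Csf1r, the M-CSF receptor, at 1501 to 1607 CPM in MR and Tnfrsf11a, the RANKL receptor, at 129.6 to 142 CPM. CPM are counts scaled to the size of each library, not corrected for gene length. Levels of these lineage and osteoclast markers and of the marker lists below are scaled by total counts alone, and all other CPM include a TMM factor for composition. Osteoclast genes were low, with Acp5 at 8.27 to 8.69 CPM and Ctsk at 7.42 to 10.1 CPM in MR. The libraries were divided by liver transcripts in a way the groups do not explain. Counts of albumin (Alb) were 738 to 1031 in 7 libraries, namely MR library 3 and all of dBRD9 and JQ1, while the remaining 5 had 0 to 2. Hexim1, whose induction is a known mark of BET inhibition, stood at 78.4 to 84.8 CPM in MR and at 221 to 255 CPM with JQ1 (log2 fold change 1.54 ± 0.068 SE, adjusted p = 4.6e-18).

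In MR, the 42 genes were expressed above the typical gene. Their median level was 14.2 FPKM, a scale of fragments corrected for gene length and library size, against 6.30 FPKM over the 11670 genes tested. The range ran from 3.06 FPKM for Wdr12 to 174 FPKM for Npm1, the histone and ribosomal protein chaperone nucleophosmin. Nhp2 followed at 89.7 FPKM and Ncl, the RNA-binding nucleolar protein nucleolin, at 78.3 FPKM, and Myc was eighth at 34.4 FPKM. Together the 42 genes took 0.408 ± 0.0105% of all counts in MR (SD, n = 3), 0.437 ± 0.0247% with dBRD9, 0.296 ± 0.0105% with JQ1 and 0.447 ± 0.0157% with DEX and iBRD9. The JQ1 libraries (0.285 to 0.306%) lay below every other library (0.398 to 0.465%), while the other 3 groups overlapped.

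Myc itself was lower with JQ1. Its levels were 89.3, 94.1 and 89.2 CPM in the MR libraries and 50.3, 58.2 and 56.3 CPM in the JQ1 libraries. With dBRD9 they were 99.6, 109 and 96.1 CPM, and with DEX and iBRD9 95.8, 116 and 111 CPM. No JQ1 library reached the other groups. All 3 dBRD9 libraries lay above all 3 MR libraries, as they did for 12.2% of all genes. The same held for DEX and iBRD9, again with 12.2% of all genes. The fall with JQ1 passed the test (log2 fold change -0.73 ± 0.076 SE, a decrease of 39.5%, adjusted p = 2.2e-09). The differences from MR did not pass for dBRD9 (0.16 ± 0.073, adjusted p = 0.27) or for DEX and iBRD9 (0.24 ± 0.073, adjusted p = 0.087). Log2 fold changes are from the edgeR quasi-likelihood test, are positive where the gene was higher in the group named first, and were called at an adjusted p under 0.05.

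**Figure D1:**
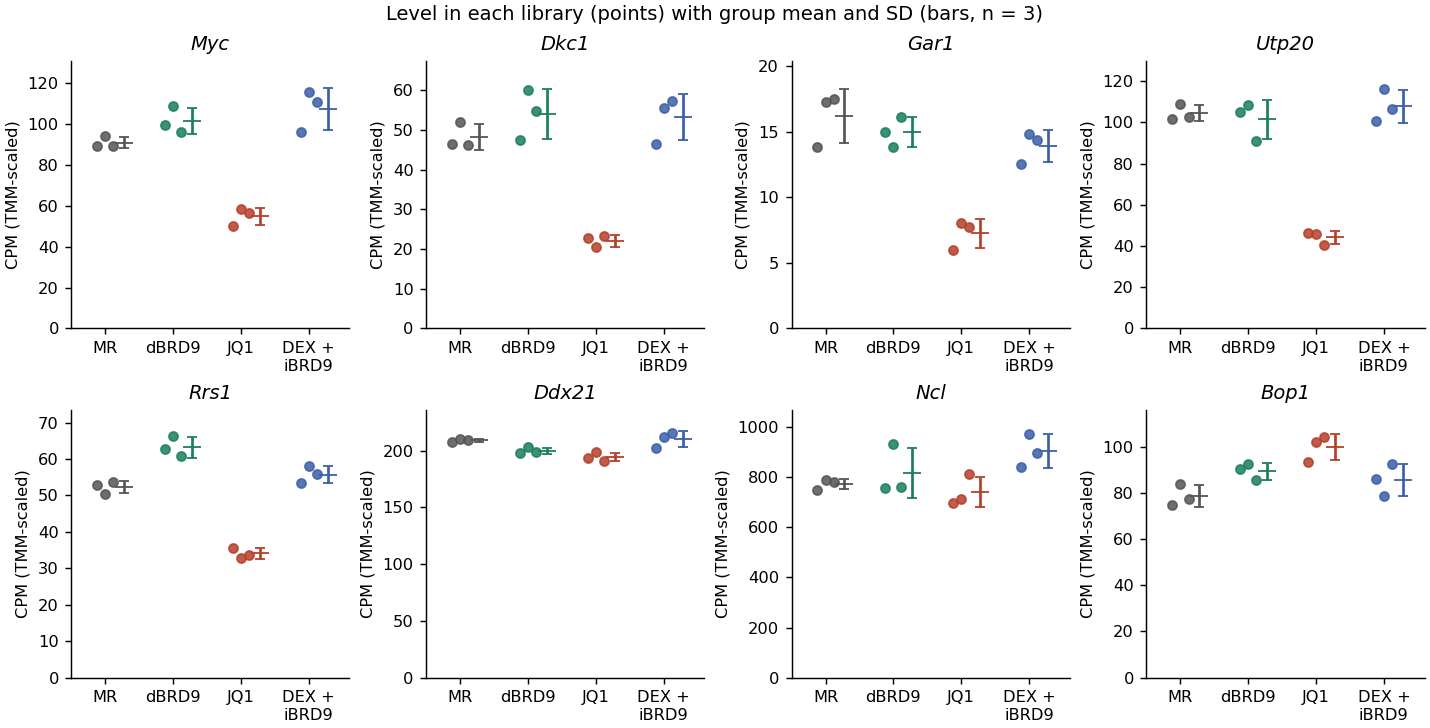
Level of 8 of the 42 genes in each library, in CPM scaled by TMM on linear axes that start at 0. Points are libraries, and the horizontal marks and bars beside them are the group mean and SD (n = 3). Myc, Dkc1, Gar1, Utp20 and Rrs1 were lower in every JQ1 library than in every other library. Ddx21 and Ncl differed little between JQ1 and MR, and Bop1 was higher with JQ1 than in MR. Ncl was higher in every DEX and iBRD9 library than in every MR library.

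The E-box was looked for in the start regions of the 42 genes, since these are the letters that Myc and Max bind. RefSeq windows of 300 bases (250 before the annotated start and 50 after it, mouse build GRCm38.p6) were available for 36 of the 42. Myc, Rrs1, Rrp12, Npm1, Fbl and Bop1 had no window and were not searched. The letters CACGTG, which read the same on both strands, were in 10 of the 36 windows (27.8%), against 8.09% of the windows of 27025 genes and 11.7% of those of the 9232 genes that were also tested. The stretch after the start held the difference. It carried the letters in 8 of 36 windows (22.2%) against 1.28% of all genes and 1.85% of the tested genes, while the stretch before the start carried them in 2 of 36 (5.56%) against 6.86% of all genes and 9.95% of the tested genes. Such a match is a description of letters and not evidence of binding.

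Of the 10 windows, 6 are shown for genes whose values are described below, as 30 bases around the E-box, which stands in capitals. All are written 5′ to 3′ on the strand of the gene, and their positions come from an exact match to GRCm39.
Utp20: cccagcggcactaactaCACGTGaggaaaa
Grwd1: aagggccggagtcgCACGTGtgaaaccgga
Wdr43: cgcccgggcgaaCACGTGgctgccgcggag
Mybbp1a: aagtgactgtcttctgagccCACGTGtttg
Nop2: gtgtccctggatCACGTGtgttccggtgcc
Imp4: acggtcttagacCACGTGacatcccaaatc
The Utp20 window lies at chr10:88662627-88662656 on the minus strand with the first base of the E-box 38 bases after the start, and the Grwd1 window at chr7:45480164-45480193 on the minus strand with the E-box at 35. The Wdr43 window lies at chr17:71923215-71923244 on the plus strand (18 bases after the start) and that of Mybbp1a at chr11:72332173-72332202 on the plus strand (41 bases after it). In Nop2, at chr6:125108774-125108803 on the plus strand, and in Imp4, at chr1:34478777-34478806 on the plus strand, the E-box lay before the start, at -60 and -121. With JQ1, 9 of the 10 genes with the E-box fell and 1, Imp4, rose, with a median log2 fold change of -0.49. Of the 26 without it, 18 fell and none was called higher by edgeR, with a median of -0.33, and this difference between medians was not tested. Bop1, which was called higher with JQ1, is in neither set because it had no window. Over all 11670 genes tested, 31.6% were called lower with JQ1 and 30% higher.

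JQ1 lowered most of the 42 genes. Against MR, 32 of 42 were called lower, 2 were called higher (Bop1 and Imp4) and 8 were not called. JQ1 moved a large part of the transcriptome, and among all 11670 genes tested 31.6% were called lower and 30% higher. The median log2 fold change of the 42 genes was -0.40, against -0.012 over all genes, and 38 of the 42 lay below 0 against 50.9% of all genes. The changes were moderate in size, from -1.24 to 0.35, and 3 genes, Utp20, Gar1 and Dkc1, fell by 2-fold or more, a size reached by 12.4% of all genes. In 32 genes every JQ1 library lay below every MR library (32.6% of all genes) and in 2 every JQ1 library lay above (30.8%).

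**Figure D2:**
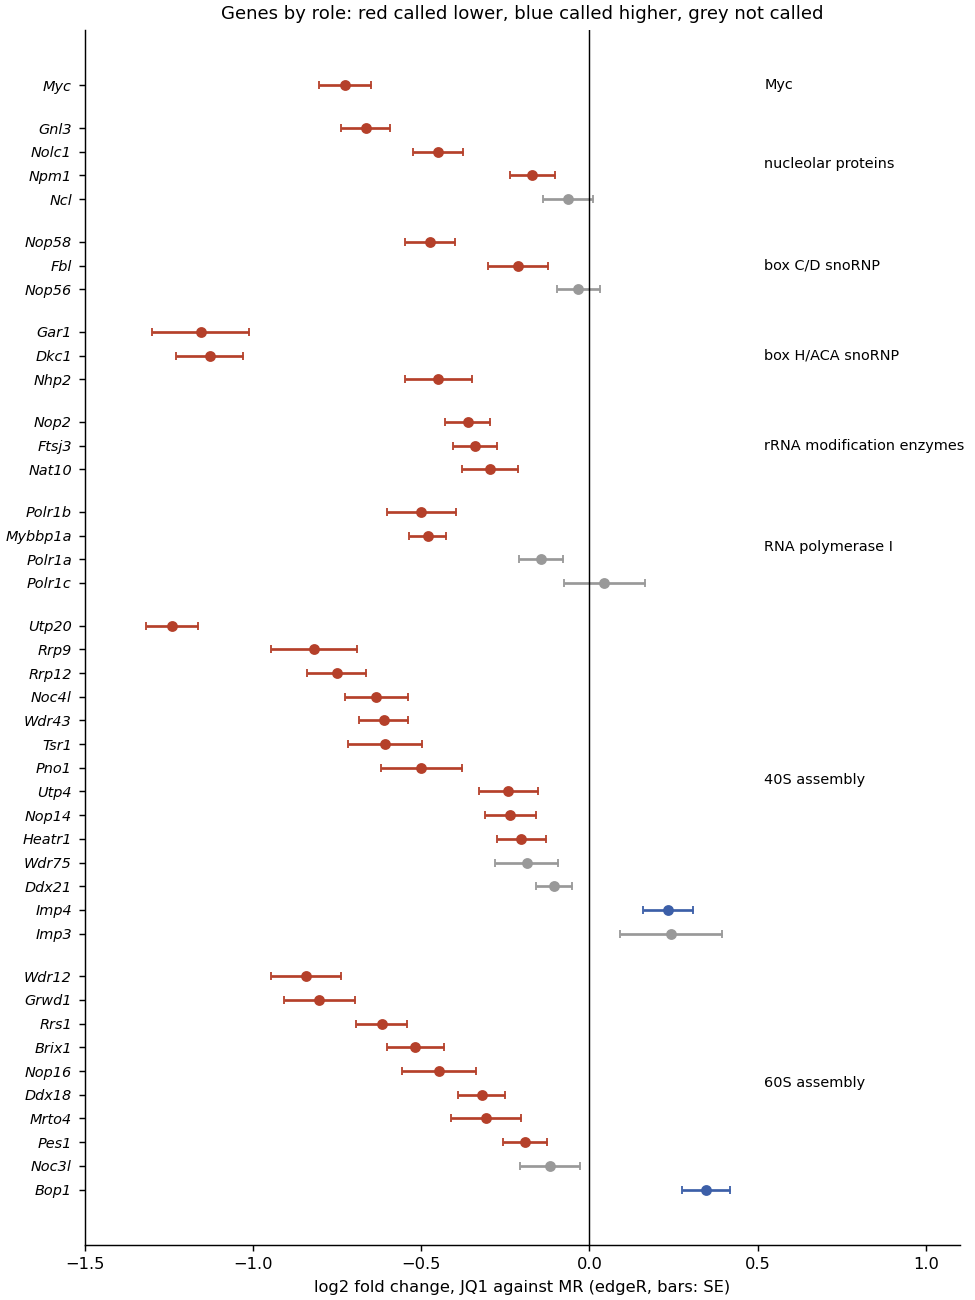
Log2 fold change of each of the 42 genes with JQ1 against MR, with its SE as a bar, grouped by role on the vertical axis. Red marks the 32 genes called lower, blue the 2 called higher and grey the 8 not called. The genes Gar1, Dkc1 and Utp20 lie beyond -1, and Imp4 and Bop1 lie to the right of 0.

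The box H/ACA snoRNP, the enzyme that converts uridines of ribosomal RNA to pseudouridine, showed the lowest median of the roles (-1.13), and all 3 of its listed proteins fell. Dkc1 encodes its catalytic subunit dyskerin. Dkc1 stood at 46.5, 52.1 and 46.2 CPM in MR and at 22.7, 20.4 and 23.2 CPM with JQ1 (log2 fold change -1.13 ± 0.100 SE, adjusted p = 5.8e-11). The levels of Dkc1 with dBRD9 (47.5, 60.01 and 54.8 CPM) and with DEX and iBRD9 (46.6, 55.6 and 57.4 CPM) were not below those of MR. Gar1, another core protein of the particle, was at 13.9, 17.3 and 17.5 CPM in MR and at 5.98, 8.03 and 7.75 CPM with JQ1 (-1.15 ± 0.14, adjusted p = 5.6e-08). For both genes the JQ1 libraries lay far below the MR libraries. Nhp2, an RNA-binding core protein of the same particle, fell less (-0.45 ± 0.10, adjusted p = 0.00074). Nop10, the remaining core protein of the particle, was not among the 42 genes and moved the other way, from 21.5 ± 5.16 CPM in MR to 44.7 ± 8.55 CPM with JQ1 (SD, n = 3, log2 fold change 1.06 ± 0.18, adjusted p = 0.00017).

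The box C/D snoRNP, which methylates the ribose of ribosomal RNA, changed less. Nop58, a scaffold protein of the particle, fell from 83.8, 90.9 and 81.6 CPM in MR to 57.8, 59.7 and 67.1 CPM with JQ1 (-0.47 ± 0.075, adjusted p = 2.9e-06), with no overlap. Its partner Nop56 was not called (-0.03 ± 0.065, adjusted p = 0.68). Fbl, the methyltransferase fibrillarin, was called lower (-0.21 ± 0.089, adjusted p = 0.043) although its libraries overlapped, with 74.9 to 88.3 CPM in MR and 58.7 to 80.9 CPM with JQ1.

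Among the nucleolar proteins, Gnl3 and Nolc1 fell the most. Gnl3 encodes the GTPase nucleostemin and was at 74.5, 69.6 and 70.3 CPM in MR and at 42.2, 48.1 and 44.8 CPM with JQ1 (-0.67 ± 0.073, adjusted p = 4.6e-09). Nolc1, a chaperone of snoRNPs, was at 139, 161 and 149 CPM in MR and at 107, 109.6 and 112 CPM with JQ1 (-0.45 ± 0.074, adjusted p = 6e-06). Neither gene had a JQ1 library within the MR range. The transcripts of nucleophosmin and nucleolin moved little. Npm1 was called (-0.17 ± 0.066, adjusted p = 0.028) with overlapping libraries, and Ncl was not (-0.06 ± 0.075, adjusted p = 0.48).

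The 3 other listed enzymes that modify ribosomal RNA all fell, within a narrow range from -0.36 to -0.30. Nop2, a cytosine methyltransferase of the large subunit RNA, was at 81.3, 78.9 and 82.7 CPM in MR and at 62.6, 61.9 and 64.6 CPM with JQ1 (-0.36 ± 0.067, adjusted p = 3e-05). Ftsj3, the counterpart of the yeast methyltransferase Spb1, was at 95.7, 104 and 102 CPM in MR and at 77.1, 79.3 and 81.5 CPM with JQ1 (-0.34 ± 0.066, adjusted p = 5.1e-05). For either gene all JQ1 values were below all MR values. Nat10, which acetylates cytidines of the small subunit RNA, fell by 0.30 on the log2 scale (± 0.082 SE, adjusted p = 0.0027).

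The RNA polymerase I genes were mixed. Polr1b, the second largest subunit of the enzyme, was at 34.4, 35.0 and 33.1 CPM in MR and at 22.7, 22.9 and 27.0 CPM with JQ1 (-0.50 ± 0.10, adjusted p = 0.00012). Mybbp1a, a Myb-binding protein of the nucleolus, was at 249, 235 and 239 CPM in MR and at 176, 174 and 168 CPM with JQ1 (-0.48 ± 0.054, adjusted p = 8.2e-09). The groups did not overlap for these genes. Polr1a, the largest subunit, was just outside the threshold (-0.14 ± 0.066, adjusted p = 0.058), and Polr1c, a subunit shared with RNA polymerase III, was at 0.04 ± 0.12 (adjusted p = 0.77).

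Of the 14 genes of 40S assembly, 10 fell (31.6% of all genes) and 1 rose (30% of all genes), with a median of -0.37. Utp20, a very large scaffold protein of the small subunit processome, showed the largest fall of the 42 genes. It was at 102, 109 and 103 CPM in MR and at 46.4, 45.8 and 40.4 CPM with JQ1 (-1.24 ± 0.078, a decrease of 57.7%, adjusted p = 2.7e-14). Its levels with dBRD9 (105, 108 and 90.8 CPM) and with DEX and iBRD9 (101, 116 and 106 CPM) overlapped those of MR. Rrp9, which binds the U3 snoRNA, was at 24.6, 28.3 and 26.9 CPM in MR and at 13.5, 18.8 and 12.6 CPM with JQ1 (-0.82 ± 0.13, adjusted p = 2.7e-06). The other 8 that fell were Rrp12, Noc4l, Wdr43, Tsr1, Pno1, Utp4, Nop14 and Heatr1, with log2 fold changes from -0.75 to -0.20. Wdr75, Ddx21 and Imp3 were not called, at -0.19, -0.10 and 0.24.

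Of the 10 genes of 60S assembly, 8 fell (31.6% of all genes) and 1 rose (30% of all genes), with a median of -0.38. Wdr12, a member of the PeBoW complex that processes the large subunit RNA precursor, was at 36.1, 33.9 and 36.7 CPM in MR and at 19.9, 20.9 and 18.6 CPM with JQ1 (-0.84 ± 0.10, adjusted p = 4.5e-08). Grwd1, the counterpart of a yeast chaperone of a ribosomal protein, was at 25.6, 25.7 and 26.4 CPM in MR and at 14.4, 16.2 and 13.9 CPM with JQ1 (-0.80 ± 0.10, adjusted p = 1.2e-07). Both were lower in every JQ1 library. Rrs1, Brix1, Nop16, Ddx18, Mrto4 and Pes1 fell by 0.62 to 0.19 on the log2 scale, and Noc3l was not called (-0.12).

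The PeBoW complex was split, since its 3 proteins did not move together. Wdr12 fell, Pes1 fell slightly (-0.19 ± 0.066, adjusted p = 0.013) and Bop1 rose. Bop1 was at 75.0, 84.0 and 77.3 CPM in MR, at 93.6, 102 and 104 CPM with JQ1, at 90.4, 92.6 and 85.5 CPM with dBRD9 and at 86.1, 78.8 and 92.4 CPM with DEX and iBRD9. The JQ1 libraries lay above the other groups, and the rise over MR was 27.1% (log2 fold change 0.35 ± 0.071, adjusted p = 0.00011). Imp4, a partner of Imp3 in the small subunit processome, was at 58.2, 55.6 and 58.2 CPM in MR and at 63.7, 64.5 and 74.0 CPM with JQ1 (0.23 ± 0.074, adjusted p = 0.0076). Both rises depended on the scaling, and with libraries scaled by total counts alone neither gene was called.

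The falls were found at every level of expression. Across the 42 genes the Spearman correlation of MR FPKM with the log2 fold change was 0.159, a description over genes of 1 set of libraries. In the 14 most abundant genes 10 fell (median -0.34), in the middle 14 genes 13 fell (median -0.39), and in the 14 least abundant 9 fell (median -0.49). Over all genes tested, 31.6% were called lower. The 8 genes not called were Ncl, Ddx21 and Nop56 from the upper group, Imp3 from the middle group, and Wdr75, Noc3l, Polr1c and Polr1a from the lowest.

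Levels in CPM are relative to the total, and the share of counts in the 10 highest genes was 13.1 ± 0.622% with JQ1 against 8.71 ± 0.0355% in MR. The share of mitochondrial counts was 2.72 to 3.20% with JQ1, above the 1.86 to 1.96% of MR, while it was 1.71 to 2.07% with dBRD9 and 2.05 to 2.43% with DEX and iBRD9. The part of this share in the results was not tested. Scaling by total counts moved the median of all genes to -0.20 (a shift of -0.19) and that of the 42 genes to -0.59. The distance of the 42 genes from all genes was -0.39 under either scaling. A change of scaling shifts all genes nearly alike, so this distance could not change and is no test of the scaling. Under that scaling 30% of the called genes were higher, against 48.7% with TMM. Without each of the 6 libraries in turn, 27 of the 34 calls held. The 7 others lost their call without MR library 1 (Heatr1), MR library 2 (Npm1, Fbl, Utp4 and Pes1), MR library 3 (Utp4), JQ1 library 1 (Npm1, Fbl, Utp4 and Mrto4), JQ1 library 2 (Npm1 and Fbl) or JQ1 library 3 (Imp4 and Heatr1).

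Markers of other cells also moved with JQ1. The summed level of 8 neutrophil markers was 170.4 to 183 CPM in MR and 18.2 to 28.6 CPM with JQ1, with Ly6g at 0 to 0.221 CPM in MR and at 0 with JQ1. The summed level of 7 stromal markers was 20.1 to 25.8 CPM in MR and 10.7 to 12.1 CPM with JQ1. Of 9 monocyte, macrophage and osteoclast precursor markers, all detected, 6 were lower in every JQ1 library than in every MR library (Itgam, Cd68, Fcgr1, Tnfrsf11a, Acp5 and Ctsk) and 3 were higher (Csf1r, Adgre1 and Lyz2). Fcgr1 was at 187 to 211 CPM in MR and at 5.98 to 9.43 CPM with JQ1. The sum of the 9 was 20031 to 20313 CPM in MR and 32127 to 36250 CPM with JQ1, of which Lyz2, the macrophage lysozyme, gave 15411 to 15685 and 27475 to 31733 CPM. The sum of 14 hepatocyte markers followed the albumin division. It was 41.7, 44.7 and 145 CPM in MR libraries 1, 2 and 3, and 43.5 to 50.7 CPM with DEX and iBRD9. With dBRD9 it was 134 to 148 CPM and with JQ1 152 to 192 CPM. Most of the low sums was Trf, at 41.5 and 44.5 CPM in MR libraries 1 and 2 and 43.2 to 50.2 CPM with DEX and iBRD9. Acta1, a marker of skeletal muscle, followed the division as well. It was at 0 CPM in MR libraries 1 and 2 and with DEX and iBRD9, and at 3.65 CPM in MR library 3. The part of these changes in the lower levels of the 42 genes was not tested, and in bulk RNA fewer cells of a type and less RNA per cell cannot be told apart. With a term for the libraries that held albumin, in which MR library 3 alone stands for MR, 26 of the 34 calls held.

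JQ1 and dBRD9 were also compared directly, which sets BET inhibition against BRD9 degradation in cultures that all carried albumin counts. Against dBRD9, 32 of 42 genes were lower with JQ1 and 1, Bop1, was higher (0.16 ± 0.071, adjusted p = 0.046), where 32.8% of all genes were called lower and 30.4% higher. The Bop1 call was lost under 6 alternatives beside those that leave out a library, and its sign turned with total-count scaling (-0.029, adjusted p = 0.73). It was also not held in every fit that leaves out a library, where 0 to 1 of the 42 genes were called higher. The median was -0.52, against -0.015 over all genes. Dkc1 fell by 1.29 on the log2 scale (± 0.099 SE, adjusted p = 2.6e-12), and Utp20 (-1.20 ± 0.078, adjusted p = 6e-14) and Gar1 (-1.04 ± 0.14, adjusted p = 3.6e-07) also passed 2-fold, as 12.5% of all genes did. The difference in Myc was -0.88 ± 0.076 (adjusted p = 3.3e-11) and that in Rrs1 -0.89 ± 0.076 (adjusted p = 2.5e-11). The 9 genes not called were Pno1, Noc3l, Polr1c, Ncl, Nop14, Heatr1, Imp3, Ddx21 and Imp4. This comparison shares its JQ1 libraries with that against MR.

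With dBRD9, 1 of the 42 genes differed from MR. Rrs1, a factor that helps place the 5S RNA in the 60S precursor, was called higher, in a comparison in which 0.514% of all genes were called higher and 1.12% lower. Rrs1 was at 52.8, 50.3 and 53.7 CPM in MR, at 62.6, 66.3 and 60.8 CPM with dBRD9, at 35.7, 32.9 and 33.7 CPM with JQ1 and at 53.4, 58.1 and 55.8 CPM with DEX and iBRD9. Every dBRD9 library lay above every other library, and the log2 fold change over MR was 0.28 ± 0.073 (adjusted p = 0.048). The call was marginal. It was lost without any 1 of the 6 libraries (log2 fold change 0.24 to 0.30, adjusted p = 0.085 to 0.19), with DESeq2 size factors (adjusted p = 0.052) and with the albumin term (0.24, adjusted p = 0.73), and it was held by the DESeq2 test (adjusted p = 0.014).

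The other 41 genes were not called with dBRD9. By edgeR and by DESeq2 none of the 42 was called lower. The values leaned upward, with 35 of 42 above 0 against 52.8% of all genes and a median of 0.09 against 0.012. At an unadjusted p under 0.05, 12 of 42 genes were higher and none lower, where 7.73% of all genes were higher and 8.87% lower, and in 12 of 42 every dBRD9 library lay above every MR library (12.2% of all genes), while in 2, Ddx21 and Heatr1, every dBRD9 library lay below (12.8%). The range ran from -0.24 for Pno1 to 0.34 for Imp3, and no gene changed by 2-fold. All 10 genes of 60S assembly lay above 0, with a median of 0.15, while 8 of the 14 genes of 40S assembly did, with a median of 0.06. Fits that left out whole groups called more. In the 6 libraries compared Nop56, Fbl, Rrs1 and Nhp2 were called higher (2.41% of all genes), and in the 9 libraries without JQ1 Nop2 and Mrto4 were called as well (2.98% of all genes).

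Transcript length moved with the dBRD9 comparison over the whole table. The shortest 20% of all genes had a median log2 fold change of 0.10 and the longest 20% of -0.08. The transcripts of the 42 genes were slightly shorter than the typical gene, with a median of 3904 bases against 4522, and the 3 highest values belonged to Imp3, Nhp2 and Mrto4. Albumin likewise separated the dBRD9 libraries from MR libraries 1 and 2. The part of length and of the albumin division in the upward lean was not tested.

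**Figure D3:**
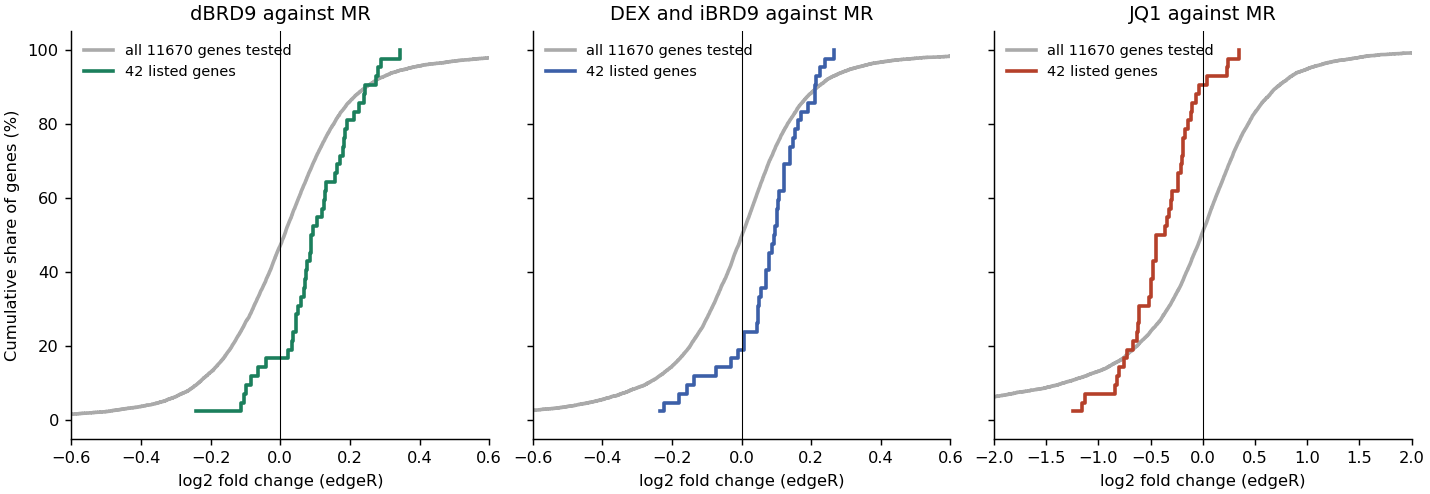
Cumulative share of genes (vertical axis, %) at or below each log2 fold change (horizontal axis, cut at the ends for display) for dBRD9, for DEX and iBRD9, and for JQ1, each against MR. Grey lines are all 11670 genes tested and colored lines the 42 genes. The colored lines lie slightly to the right of the grey line over most of their course in the first 2 panels (medians 0.09 and 0.10) and to the left in the JQ1 panel (median -0.40).

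With DEX and iBRD9, none of the 42 genes was called against MR by edgeR or by DESeq2, where 0.591% of all genes were called higher and 1.36% lower by edgeR. The median was 0.10 against 0.0016 over all genes, and 34 of 42 genes lay above 0 against 50.4% of all genes. At an unadjusted p under 0.05, 9 of 42 were higher and none lower (7.02% and 8.6% of all genes), and in 11 genes every treated library lay above every MR library (12.2% of all genes) and in 1, Pno1, below (12.8%). The highest values were those of Noc3l (0.27 ± 0.088, adjusted p = 0.12) and Myc, and the lowest that of Pno1 (-0.24 ± 0.12, adjusted p = 0.34). Myc depended on the fit. It was called in the 6 libraries compared (adjusted p = 0.0061), in the 9 libraries without JQ1 (adjusted p = 0.018), with no filter on low counts (adjusted p = 0.032) and without DEX and iBRD9 library 1 (0.32, adjusted p = 0.033), and it was not called in the other fits that leave out a library (adjusted p = 0.16 to 0.39). The 6-library fit called 6 of the 42 genes higher (Nop56, Nolc1, Ddx18, Ncl, Myc and Noc3l) where 3.54% of all genes were called higher.

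DEX and iBRD9 was also set against dBRD9, which compares the inhibitor given with the glucocorticoid to the degrader. In the edgeR fit of all 12 libraries none of the 42 genes was called in either direction, where 2.36% of all genes were called. At an unadjusted p under 0.05 there were 8 (17.3% of all genes). Other edgeR fits called some, with the counts over all genes given below. Imp3 and Fbl were lower in the 6 libraries compared (adjusted p = 0.019 and 0.016) and with no filter on low counts. In the 9 libraries without JQ1, Imp3, Fbl and Polr1c were lower (adjusted p = 0.013, 0.018 and 0.047). Without dBRD9 library 2, Imp3 was lower and Ncl higher. The fit without DEX and iBRD9 library 1 called Imp3 (-0.64, adjusted p = 0.047) and Polr1c (-0.49, adjusted p = 0.049) lower. DESeq2 called Imp3 lower. Imp3 stood at 17.9, 13.4 and 15.5 CPM with dBRD9 and at 12.6, 10.0 and 9.96 CPM with DEX and iBRD9, without overlap, and its log2 fold change of -0.52 was the lowest of the 42. The median was -0.01. Every dBRD9 library carried albumin counts and no DEX and iBRD9 library did, so the albumin division and the agents cannot be told apart in this comparison.

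A level per library was made from the 42 genes as the median of log2 CPM minus the MR mean of each gene. It was -0.035, 0.037 and 0.0004 in the MR libraries and -0.42, -0.37 and -0.34 in the JQ1 libraries. With dBRD9 it was 0.053, 0.17 and 0.091, and with DEX and iBRD9 0.056, 0.12 and 0.086. All JQ1 libraries were far below the rest, and all 6 libraries with a BRD9 agent were above the 3 MR libraries, although the lowest of them exceeded the highest MR library by less than the pooled SD between libraries of a group, 0.042. The same median over all genes was between -0.016 and 0.013 in each library. Against the MR mean, 40, 38 and 35 of the 42 genes were lower in the 3 JQ1 libraries, and dBRD9 library 2, with 35 genes higher, was the highest library.

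**Figure D4:**
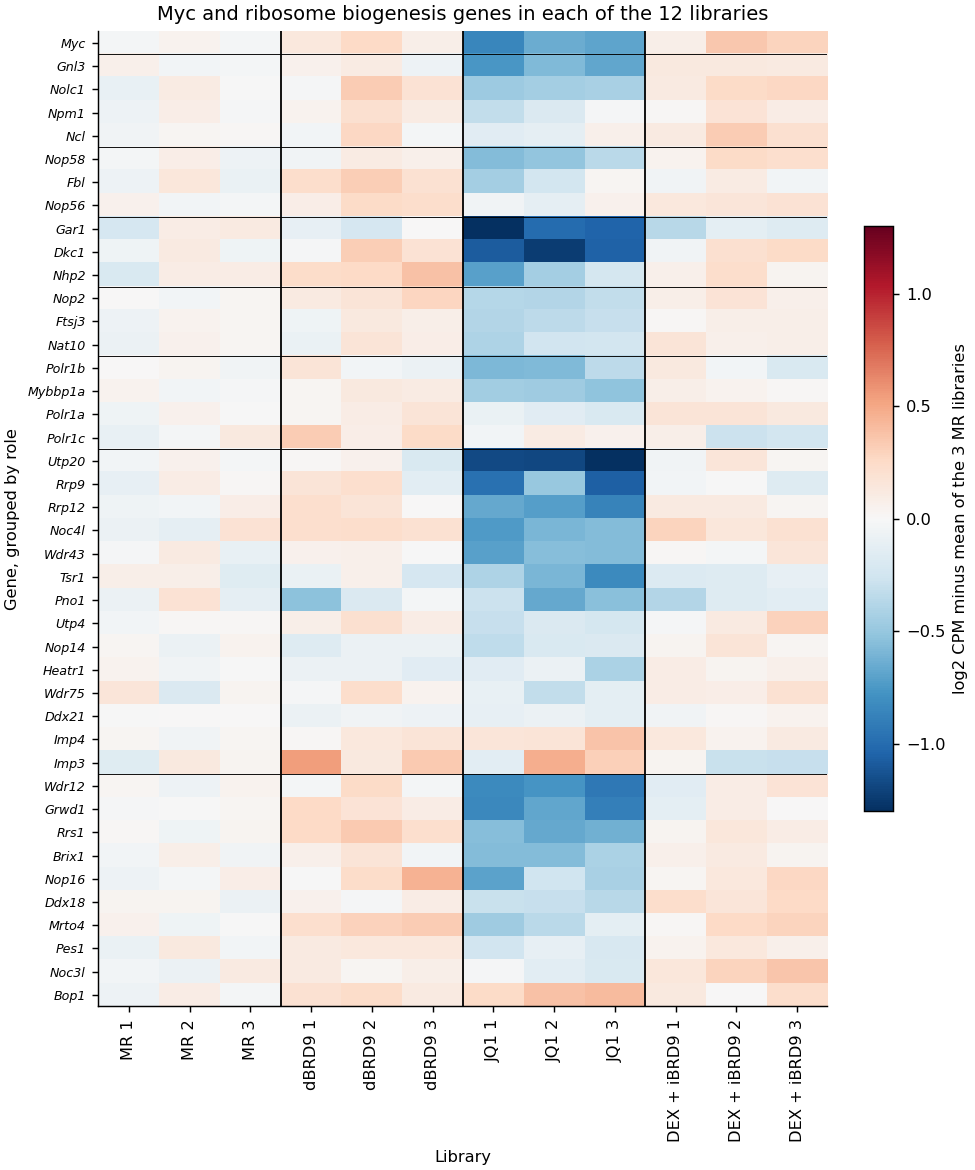
Log2 CPM of each of the 42 genes (rows, grouped by role) in each of the 12 libraries (columns), minus the mean of the 3 MR libraries. Blue is lower and red is higher than MR, on the scale at the right. The 3 JQ1 columns are blue for most genes, darkest for Gar1, Dkc1 and Utp20, and red for Bop1 and Imp4.

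Further genes of ribosome biogenesis, listed by role beside the 42, also lay lower with JQ1 in the median. Of 127 tested, 60 were called lower and 16 higher against MR, with a median of -0.20, where 31.6% and 30% of all genes were called. The 127 include the other genes of RNA polymerase I and those of RNA polymerase III, which are also described apart below. In a list of snoRNP assembly and other factors 8 of 11 fell, while Nop10 rose. Among those that fell were Ruvbl1 (-0.92 ± 0.12), an ATPase that helps assemble snoRNPs, and Naf1 (-0.85 ± 0.16). Naf1 holds the place of Gar1 during assembly of the H/ACA particle. In the RNA exosome, the complex that trims ribosomal RNA precursors, 8 of 13 fell and none rose by edgeR (none at an unadjusted p under 0.05), with Exosc10 at -0.63 ± 0.065 and C1d, its cofactor, at -0.58 ± 0.088. Other 40S factors gave 18 lower and 3 higher of 38, with Pwp2 (-0.76 ± 0.093) and Ltv1 (-0.74 ± 0.090) lowest among those called and Rrp36 (0.43 ± 0.095) highest. Other 60S factors gave 20 lower and 5 higher of 40. Mdn1, the giant ATPase that removes assembly factors from the 60S precursor, fell from 90.9 ± 4.68 to 40.3 ± 6.59 CPM (-1.18 ± 0.084, adjusted p = 5.1e-13), and the helicases Ddx54 (0.57 ± 0.064) and Ddx55 (0.45 ± 0.12) rose.

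Other RNA polymerase I genes were mostly not called with JQ1. Of 12, 1 fell (8.33%, against 31.6% of all genes) and 2 rose (16.7%, against 30%), with a median of 0.08. Rrn3, the initiation factor, fell (-0.26 ± 0.073). Polr1d (0.48 ± 0.076), a subunit shared with RNA polymerase III, and Ttf1 (0.30 ± 0.12), the termination factor, rose. Among the listed Myc targets outside the nucleolus, 12 of 18 fell (66.7%, against 31.6% of all genes) and 1 rose (5.56%, against 30%). Their median was -0.48. Shmt2, the mitochondrial serine hydroxymethyltransferase, fell from 100.3 ± 5.61 to 46.9 ± 3.29 CPM (-1.10 ± 0.074, adjusted p = 1.4e-13), and Tfap4, a transcription factor, from 6.93 ± 0.569 to 2.69 ± 0.479 CPM (-1.37 ± 0.20). Eif4a1, the translation initiation helicase, rose (0.49 ± 0.053). With dBRD9, none of the 156 genes of these lists was called by edgeR, with 18 at an unadjusted p under 0.05 (11.5%, against 16.6% of all genes). With DEX and iBRD9 against MR, 1 of 156 was called (0.641%, against 0.591% of all genes called higher), the 40S helicase Ddx49 (0.36 ± 0.098, adjusted p = 0.048).

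The Myc network was listed as Max, its relative Mlx, proteins that pair with either, and Fbxw7, the ubiquitin ligase subunit that recognizes Myc. With JQ1, 3 of 11 genes were lower (27.3%) and 4 higher (36.4%), shares near the 31.6% and 30% of all genes. Mycl, a paralog of Myc, fell from 8.10 ± 0.568 CPM in MR to 0.209 ± 0.303 CPM (log2 fold change -5.12 ± 0.36, adjusted p = 3.2e-13). Max fell slightly (-0.32 ± 0.071, adjusted p = 0.00025). Of the partners of Max that oppose Myc, Mxi1 rose from 17.3 ± 1.87 to 43.8 ± 1.95 CPM (1.34 ± 0.10, adjusted p = 2.7e-12) and Mxd4 from 30.5 ± 0.525 to 55.2 ± 2.68 CPM (0.85 ± 0.090, adjusted p = 2.3e-09), while Mxd1 fell (-0.73 ± 0.094, adjusted p = 9.9e-08). Mnt and Mga were not called, at -0.12 and -0.11. None of the network was called with dBRD9 or with DEX and iBRD9 against MR by edgeR, with 2 and 0 of 11 at an unadjusted p under 0.05.

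Some of the counts may be shared between genes. Whether strand was used in counting is not given in the sources used here, and 19 of the 42 genes share exonic bases with a gene on the opposite strand, so reads of the partners cannot be told apart. Dkc1 shares 1246 of its 6206 exonic bases with Mpp1, which stood at 238 CPM in MR and rose slightly with JQ1 (0.17), while Dkc1 fell. Tsr1 shares 2917 of 5943 bases with Sgsm2 and Srr, of which Sgsm2 rose (0.85). Bop1 shares 626 of 4087 bases with Mroh1 and Hsf1, both of which rose with JQ1 (0.45 and 0.22), in the direction of Bop1. Imp4 shares 186 of 9065 bases with Ccdc115, which fell (-0.19). For some genes that fell, a partner was also called lower with JQ1. These were Lgals8 (-1.04) of Heatr1, Parp3 (-0.84) of Rrp9, Rad1 (-0.63) of Brix1, Dnaaf10 (-0.50) of Pno1 and Emc1 (-0.30) of Mrto4. For Nhp2, Ftsj3, Nop16 and Mybbp1a, which fell as well, a partner was called higher. The part of shared reads in these changes was not tested. Gar1, Utp20, Rrs1 and Myc share no exonic bases with such a gene. Near copies of at least 200 bases at 95% identity or more were found in transcripts of other genes for 15 of the 42, with the longest for Ddx18 (1984 bases), Pes1 (1513) and Wdr12 (1377), and the values of these genes are uncertain to that extent.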

How the data were processed

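The deposited table held a count per gene and library and an FPKM value, which the authors derived from it. The submitters' processing notes name cutadapt, HISAT2 and HTSeq and the build GRCm39. No per-sample column was left out. Counts were analysed in R 4.3.3 with edgeR 4.0.16 (filterByExpr with a minimum count of 10, which kept 11670 genes, TMM scaling, and the quasi-likelihood test in 1 fit of 12 libraries with 8 residual degrees of freedom), and p-values were adjusted by Benjamini and Hochberg over all genes tested. The script was tested on simulated data. CPM include the TMM factors, with a prior count of 2 on the log2 scale, except for the cell type markers, whose CPM are scaled by total counts. Alternatives were DESeq2 1.42.0, other scalings, filters, thresholds and subsets of libraries, and a term for libraries with at least 100 albumin counts. Exons were taken from GENCODE M39, near copies from blastn 2.17.0 and start windows from RefSeq, and figures were drawn with matplotlib 3.10.9. The genes, lists, comparisons and alternatives were chosen with earlier results of these data known. Values per library were given for Myc, for genes called without JQ1, for the genes that moved against the rest and for the 2 largest non-overlapping JQ1 changes of each role. Other genes named for a fit or an overlap were chosen after their values were seen. The values of 1 listed gene are not reported here.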

Additional observations from a re-analysis of the deposited data

How the results depend on the processing

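No paired analysis was possible because the groups share no replicate numbers in the labels. Counts below are of genes called higher and lower, with those of the 42 genes named apart. DESeq2 size factors left 0 of the 42 genes higher with dBRD9. Scaling by total counts gave 2216 higher against MR for JQ1 (0 of the 42, median -0.59) and 2175 against dBRD9 (0 of the 42, median -0.71), and reversed Polr1c with JQ1 against MR (-0.14) and Bop1 with JQ1 against dBRD9 (-0.029). With no filter on low counts, dBRD9 gave 174 and 361 (3 of the 42 higher), DEX and iBRD9 gave 154 and 419 against MR (3 higher) and 247 and 496 against dBRD9 (2 lower). DESeq2 gave 116 and 274 for dBRD9, and for DEX and iBRD9 126 higher against MR and 180 higher against dBRD9 (1 of the 42 lower). The 6 libraries compared gave 276 and 500 for dBRD9 (4 higher), 402 and 652 for DEX and iBRD9 against MR (6 higher) and 336 and 513 against dBRD9 (2 lower). The 9 libraries without JQ1 gave 346 and 578 (6 higher), 251 and 413 (3 higher) and 425 and 535 (3 lower) for the same comparisons. With the albumin term dBRD9 gave 1 and 0 (0 of the 42), DEX and iBRD9 gave 20 and 81 against MR and 0 and 0 against dBRD9, 1 of the 42 was higher with JQ1 against MR, and Polr1c was at -0.081. The study's threshold on DESeq2 (unadjusted p and a 1.2-fold change) gave 326 and 443 for dBRD9 (4 higher), 270.0 and 525 for DEX and iBRD9 against MR (1 higher) and 282 and 600.0 against dBRD9 (2 lower). Under it, and with a 1.2-fold minimum in edgeR, 1 of the 42 was higher with JQ1 against MR. The rise of Bop1 with JQ1 against dBRD9 was not called (0 of the 42 higher) under 6 alternatives, namely total counts, the stricter filter, the 6 libraries, the albumin term and both 1.2-fold thresholds. The fits that leave out a replicate, given below, did not all hold it either. On log2(FPKM + 1) the level per library of JQ1 was -0.52, and the E-box stood before the start in 2 of 36 windows.

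Without each replicate in turn, dBRD9 against MR gave 6 to 64 higher and 9 to 81 lower (0 of the 42 higher, 0 lower, median 0.079 to 0.13) and JQ1 against MR 3173 to 3393 and 3420 to 3667 (1 to 3 higher, 29 to 31 lower, median -0.43 to -0.34). DEX and iBRD9 against MR gave 10 to 59 and 43 to 111 (0 to 1 higher, 0 lower, median 0.072 to 0.11), JQ1 against dBRD9 3299 to 3402 and 3547 to 3711 (0 to 1 higher, 31 to 34 lower, median -0.56 to -0.47), and DEX and iBRD9 against dBRD9 2 to 90 and 6 to 262 (0 to 1 higher, 0 to 2 lower, median -0.049 to 0.024). Polr1c with JQ1 was at -0.0033 without MR replicate 1, and Nop56 ranged from -0.080 to 0.010, above 0 without JQ1 replicate 2. Of the 32 genes lower with JQ1 against MR, 24 kept the call under every alternative run. The causes of these differences were not tested. With 3 libraries a group, changes of the size seen with dBRD9 were called or not depending on the fit.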

Other observations

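RNA polymerase III, which transcribes the 5S ribosomal RNA and the tRNAs, was 1 of the lists within the 127 further genes of ribosome biogenesis described above. Of 13 genes tested, 5 were higher and 5 lower with JQ1 than in MR (38.5% each, against 30% and 31.6% of all genes), with a median log2 fold change of -0.0025. Polr3d, a subunit of the enzyme, fell from 24.1 ± 2.83 to 13.3 ± 2.43 CPM (SD, n = 3, log2 fold change -0.86 ± 0.12 SE, edgeR adjusted p = 5.2e-07). Brf1, a subunit of the initiation factor TFIIIB, rose from 47.7 ± 3.50 to 77.9 ± 6.78 CPM (0.70 ± 0.080, adjusted p = 1e-08), and Polr3g rose from 11.1 ± 1.22 to 15.2 ± 1.11 CPM (0.46 ± 0.14, adjusted p = 0.0047). None of the 13 was called with dBRD9 or with DEX and iBRD9 against MR by edgeR, with 1 at an unadjusted p under 0.05 in each comparison.

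Between DEX and iBRD9 and dBRD9, 4 of the 156 listed genes outside the 42 were called (2.56%), a share near the 2.36% of all genes. Eif5a, the translation factor that carries hypusine, was at 673 ± 30.8 CPM with dBRD9 and 556 ± 26.3 CPM with DEX and iBRD9 (-0.28 ± 0.064, edgeR adjusted p = 0.018). Ldha, the lactate dehydrogenase subunit, was at 856 ± 7.31 and 731 ± 21.6 CPM (-0.23 ± 0.053, adjusted p = 0.018), and Eif6, which keeps the subunits of the ribosome apart, at 129 ± 8.09 and 107 ± 2.98 CPM (-0.27 ± 0.068, adjusted p = 0.029). Bdp1, a subunit of TFIIIB, was higher, at 72.7 ± 4.15 against 59.2 ± 2.30 CPM (0.30 ± 0.082), just inside the threshold. The dBRD9 libraries carried albumin counts and the DEX and iBRD9 libraries did not, and with the albumin term no gene of the table was called in this comparison by edgeR.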
